A study of Mus musculus with 4 samples.

Results

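The 10 genes described here carry insulin's signal from the cell surface to glucose uptake in muscle: Insr, Irs1, Irs2, Pik3r1, Akt2, Tbc1d1, Tbc1d4, Slc2a1, Slc2a4 and Hk2. They were chosen by gene symbol, with earlier results of these data known, and no measured value enters the rule. They are 10 of the 21644 coding genes annotated on X and the 19 autosomes. H3K27ac, acetylation of lysine 27 on histone H3, had been mapped by ChIP-seq, the sequencing of DNA precipitated with an antibody to the mark. The tissue was gastrocnemius, a calf muscle, of female adult B6CASTF1/J mice aged 2 months. All 4 libraries belonged to 1 group with no treatment named: 2 biological replicates, each a pool of 2 gastrocnemius tissue samples, with 2 technical replicates each. With 1 group there is no contrast and no test, so every value below is a description of the deposited lists of acetylated regions, and the 2 single-replicate lists show the spread between pools.

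Insulin binding switches on the tyrosine kinase of its receptor, which phosphorylates adaptor proteins that recruit phosphoinositide 3-kinase. The lipid this kinase makes brings Akt to the membrane, where it is activated. Akt then phosphorylates a pair of GTPase-activating proteins that otherwise hold Rab proteins inactive, and vesicles carrying the glucose transporter GLUT4 move to the surface. Skeletal muscle takes up much of the glucose cleared after a meal by this route. H3K27ac marks active promoters and enhancers, so it reports on the chromatin at these genes and not on the activity of their proteins.

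The replicated list, drawn from both pools, held 84452 regions over 118 Mb of mm10, against 70953 regions over 85.1 Mb for replicate 1 and 86937 over 117.8 Mb for replicate 2. The replicate 1 list was thus shorter in total regions and in total covered sequence, and read depth is unknown. A region lay within 1 kb of a start in all 6 myofibre markers, including Ckm, Acta1 and Myh4, all 4 endothelial markers and all 3 fibroblast markers. Of 5 adipocyte markers none had one, and of the adipocyte markers Plin1 alone had any acetylated sequence within 5 kb of a start, 993 bp. The counts were 2 of 4 for leukocytes, 2 of 5 for red cell precursors and 0 of 4 for hepatocytes. Promoter regions of endothelial and fibroblast genes were thus present beside those of fibre genes, and in such bulk tissue fewer cells of a type and less acetylation per cell cannot be told apart.

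Every one of the 10 genes had a promoter region, meaning a region within 1 kb of one of its protein-coding transcript starts. This held in the replicated list, where 61.2% of all coding genes had one, and in both single-replicate lists, where 58.6% did. The genes differed in how much sequence around the start was covered. The acetylated length is the number of base pairs covered within 5 kb to each side of a start, 10000 at most, at the start with the largest value. Its median over the 10 genes was 7183 bp (6525 in replicate 1 and 7072.5 in replicate 2), beside 1469 bp over all coding genes and 2568 bp over those with a promoter region.

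Akt2 had the largest acetylated length, 9745 bp (7793 in replicate 1 and 9481 in replicate 2), at an inner start 14265 bp into the gene. At its first start it had 6346 bp (5574 and 6336), below the next 6 genes at the start with their largest value. At first starts alone the order differs, with Hk2 at 6310 bp (5937 and 6330). Second was Tbc1d1 with 8963 bp (7543 and 8857). Irs2 came next with 8557 bp (8160 and 8668), then Pik3r1 with 7506 bp (6217 and 7235) and Hk2 with 7401 bp (7028 and 7421). Irs1 had 6965 bp (6833 and 6704) and Slc2a4 6702 bp (5755 and 6910). Neighbours in this order overlapped in their range between replicates except at 2 steps: the lower Irs2 value, 8160 bp, lay above both Pik3r1 values, and the lower Hk2 value, 7028 bp, above both Irs1 values. Insr with 3155 bp (2324 and 2794), Tbc1d4 with 2288 bp (2007 and 2470) and Slc2a1 with 2050 bp (1478 and 2271) stood apart below. The highest single-replicate value of these 3 genes, 2794 bp, lay under the lowest of the other 7, 5755 bp. Base by base, a median of 83.2% of the sequence covered in either replicate around the start was covered in both, beside 80.5% over coding genes with a promoter region. Irs1 had the highest share, 98.1%, and Slc2a1 the lowest, 64.2%.

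**Figure D1:**
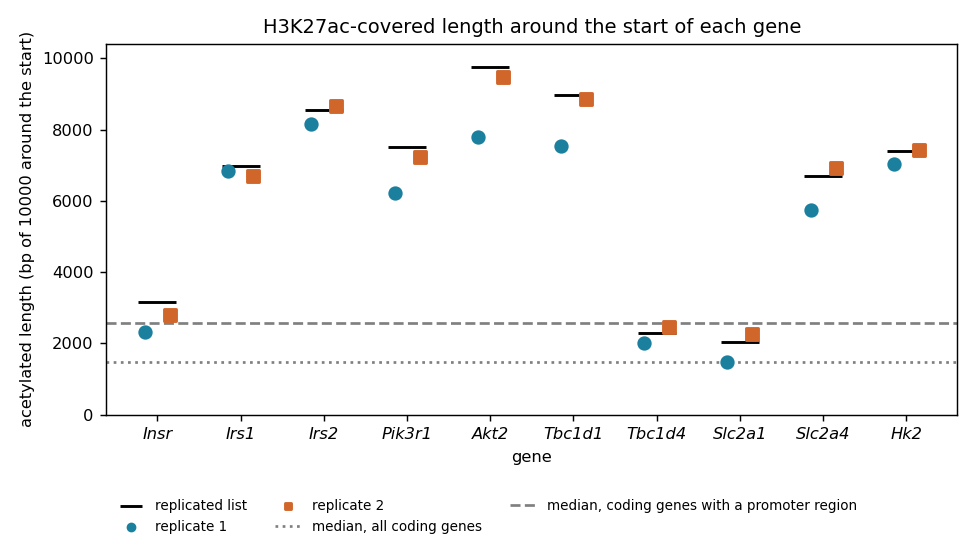
Acetylated length in bp (y axis, of 10000 around the start) of each of the 10 genes (x axis), as a black bar for the replicated list, a circle for replicate 1 and a square for replicate 2; grey lines are medians of all coding genes (1469 bp) and of those with a promoter region (2568 bp). Insr, Tbc1d4 and Slc2a1 lie at 1478 to 3155 bp and the other 7 genes at 5755 to 9745 bp.

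The receptor gene Insr (ENSMUSG00000005534.10, chr8:3122061-3279617, minus strand) encodes the insulin receptor. Its promoter region was strong, and short beside those of most of the other 9 genes. Regions carry a signal value deposited by the authors, which is compared only within a list. At Insr it was 46.4 in the replicated list, beside 35.4 and 49.0 in replicates 1 and 2, at or above 98.1%, 97.0% and 98.6% of the regions of each list. The region spanned 3155 bp, and 17 further regions lay along the gene, all with their summits in introns. The strongest of these was at chr8:3219980-3222539, with its summit 58209 bp into the gene and a signal value of 17.4 (14.3 in replicate 1 and 21.2 in replicate 2). Regions covered 15.6% of the Insr body, beside a median of 4.22% over all coding genes, 11.8% over those with a promoter region and 50.7% over the 10 genes.

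The adaptors that dock on the activated receptor are encoded by Irs1 (ENSMUSG00000055980.2, chr1:82233101-82291416, minus strand) and Irs2 (ENSMUSG00000038894.7, chr8:10984681-11008458, minus strand). Both had wide promoter regions that ran over the coding sequence. The Irs1 region, chr1:82280956-82293380, was 12425 bp wide and held all 3693 bp of its coding sequence, which lies in 1 exon. It was 12266 bp wide in replicate 1 and 12162 bp in replicate 2, ranking 246th, 85th and 237th by width in the lists. The Irs2 region, chr8:11000452-11010748, was 10297 bp wide (8712 and 10038) and held 3961 of 3963 coding bp.

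Signal values at the adaptors' starts were in a different order from widths. Irs2 reached 55.9 (47.7 in replicate 1 and 54.2 in replicate 2), at or above 99.5% of the replicated list. Irs1 reached 37.8 (25.8 and 40.7), at or above 95.8%. Irs1 was thus the wider and Irs2 the stronger region in each of these 3 lists. Beyond their starts, Irs1 had 28 further regions in its window and Irs2 had 13 in the replicated list. A window here is the gene body and 50 kb to each side. With start regions counted, Irs1 had 29 (17 in replicate 1 and 28 in replicate 2) and Irs2 had 14 (18 and 14). The larger count at Irs1 was thus absent in replicate 1. By the overlap rule given below, 13 of the 29 at Irs1 and 12 of the 14 at Irs2 recurred in each replicate. The strongest region near Irs1 that lay at no coding start was downstream at chr1:82199166-82201305 (15.1). For Irs2 it was inside the gene at chr8:10988436-10996137, 7702 bp wide (16.6, with 8.44 in replicate 1 and 21.0 in replicate 2). The promoter of Irs2 is shown because it was the strongest start of the receptor and adaptor genes and rich in CpG, with 41 CpG in 300 bases where the median of coding promoters was 14. It is the RefSeq window chr8:11008880-11009179 (GRCm38.p6, minus strand, 250 bases before to 50 after the RefSeq start), and all 300 bases lay in regions of all 4 lists. The RefSeq start is 471 bp upstream of the GENCODE start. Capitals mark matches to the motifs searched: CCAAT or its complement at -137 and -101, GGGCGG at -85 and CACGTG at -44, counted from the RefSeq start, whose own base is 1, with minus signs for bases before it.
Irs2 promoter: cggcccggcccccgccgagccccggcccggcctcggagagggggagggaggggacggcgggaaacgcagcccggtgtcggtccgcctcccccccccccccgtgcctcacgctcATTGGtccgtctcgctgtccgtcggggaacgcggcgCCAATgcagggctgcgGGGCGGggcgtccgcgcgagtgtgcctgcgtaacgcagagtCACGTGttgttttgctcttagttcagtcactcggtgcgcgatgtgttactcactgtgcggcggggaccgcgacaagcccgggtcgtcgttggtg

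Pik3r1 (ENSMUSG00000041417.15, chr13:101680563-101768217, minus strand) encodes the regulatory subunits of phosphoinositide 3-kinase. Its longest product is p85 alpha, and shorter subunits are made from starts inside the gene. The 2 protein-coding starts, 75587 bp apart, both had regions of very different shape. At the first start the region was 4585 bp wide (4607 in replicate 1 and 4569 in replicate 2), with a signal value of 48.7 (41.3 and 47.8). At the inner start it was 8066 bp wide with a signal value of 13.6. Replicate 2 had 1 region of 7235 bp there (16.2), and replicate 1 had 5 pieces over the same span, the widest of them 2620 bp (9.71). The first start was the stronger in all 3 lists, and the inner start had the larger acetylated length, 7506 against 6877 bp, in replicate 1 also, 6217 against 6004 bp.

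Sequence at the 2 Pik3r1 starts also differed, and both windows are shown because they contrast the 2 kinds of start. The first window, chr13:101768168-101768467, had 34 CpG and 75.7% G+C. The inner window, chr13:101692581-101692880, had 6 CpG and 43.7% G+C (both minus strand, GRCm38.p6). Capitals mark GGGCGG at -190, -70, -34 and -21 and CCAAT, as its complement, at -50 in the first window. In the inner window they mark 1 match of TATAAA, as its complement, at -117.
Pik3r1 first start: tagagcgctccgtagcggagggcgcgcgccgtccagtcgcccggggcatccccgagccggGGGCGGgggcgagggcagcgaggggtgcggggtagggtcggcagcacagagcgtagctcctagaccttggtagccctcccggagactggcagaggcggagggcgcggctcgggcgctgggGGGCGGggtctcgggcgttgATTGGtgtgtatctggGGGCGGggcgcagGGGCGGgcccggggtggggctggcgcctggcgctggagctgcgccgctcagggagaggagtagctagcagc
Pik3r1 inner start: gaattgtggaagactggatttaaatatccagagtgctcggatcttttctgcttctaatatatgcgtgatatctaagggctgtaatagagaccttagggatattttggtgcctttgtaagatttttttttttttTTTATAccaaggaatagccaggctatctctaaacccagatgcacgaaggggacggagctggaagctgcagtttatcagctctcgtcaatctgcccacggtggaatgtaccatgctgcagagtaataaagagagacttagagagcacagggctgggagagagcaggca

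Akt2 (ENSMUSG00000004056.15, chr7:27591552-27640826, plus strand) encodes the Akt kinase needed for insulin-stimulated glucose uptake in muscle. Its 5 protein-coding starts fell under 2 neighbouring regions. The region at the first start, chr7:27590206-27603596, was 13391 bp wide in the replicated list, 12087 bp in replicate 2 and 4106 bp in replicate 1, where the span was broken into 5 regions covering 81.9% of it. Its signal value, 58.8 (50.2 in replicate 1 and 55.3 in replicate 2), was the highest at any start of the 10 genes in each of these lists. The region at the inner starts was 6522 bp wide (6267 and 6808), with a signal value of 31.7 (18.3 and 34.9).

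Tbc1d1 and Tbc1d4 encode the Rab GTPase-activating proteins that Akt switches off. They are related proteins, and their windows differed in how much was covered. Tbc1d1 (ENSMUSG00000029174.18, chr5:64156305-64351486, plus strand) had 73 regions in its window (76 in replicate 1 and 77 in replicate 2), the most of the 10, and they covered 40.3% of it (31.6% and 38.6%). Tbc1d4 (ENSMUSG00000033083.16, chr14:101442360-101609191, minus strand) had 16 regions (13 and 15) over 5.89% (4.04% and 6.41%). The windows were of similar length, 295182 and 266832 bp. Over all coding genes the median was 6 regions and 5.78%, so Tbc1d4 lay near the middle in coverage and Tbc1d1 above 98.5% of genes.

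Promoter regions of the pair differed in the same direction. At Tbc1d1 the signal value was 36.0 (41.0 in replicate 1 and 33.3 in replicate 2) and at Tbc1d4 16.7 (13.2 and 19.3), the lowest of the 10 genes' strongest starts in each list. Tbc1d1 also has a start 70948 bp inside the gene, with a weaker region of 1817 bp (1794 in replicate 2). The signal value there was 10.8 (8.71 in replicate 1 and 10.4 in replicate 2). In replicate 1 that span was divided into 2 regions that covered 1418 bp of it, the stronger 837 bp wide. The intron before this inner start held chr5:64195626-64198786, in the replicated list and replicate 2 the strongest region of the 10 windows away from all coding starts. In replicate 1 a region inside Hk2 was stronger (28.6). The Tbc1d1 region was 3161 bp wide with a signal value of 32.9 (25.6 and 33.8), at or above 94.1% of the replicated list. In replicate 2 it exceeded the gene's own promoter region, 33.8 against 33.3. The strongest such region of Tbc1d4, chr14:101517586-101519410 in an intron, had 11.3 (6.16 and 14.1).

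The Tbc1d1 promoter windows chr5:64160010-64160309 and chr5:64230107-64230406 (plus strand, GRCm38.p6) are shown because the stronger start had fewer CpG, 26 against 33. The first had CAGCTG, an E-box, at -231 and -3. The inner start had GGGCGG or its complement at -141, -113, -85 and -66. The 300 bases at the summit of the intron region, chr5:64196692-64196991, had 3 CpG, as did the median summit window away from coding starts, and 1 CCAAT. Capitals mark these matches.
Tbc1d1 first start: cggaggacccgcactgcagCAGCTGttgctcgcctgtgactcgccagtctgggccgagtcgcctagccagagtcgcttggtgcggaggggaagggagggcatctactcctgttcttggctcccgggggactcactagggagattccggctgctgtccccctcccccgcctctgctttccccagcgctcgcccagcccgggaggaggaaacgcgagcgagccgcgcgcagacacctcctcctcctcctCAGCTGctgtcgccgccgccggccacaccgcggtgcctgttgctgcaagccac
Tbc1d1 inner start: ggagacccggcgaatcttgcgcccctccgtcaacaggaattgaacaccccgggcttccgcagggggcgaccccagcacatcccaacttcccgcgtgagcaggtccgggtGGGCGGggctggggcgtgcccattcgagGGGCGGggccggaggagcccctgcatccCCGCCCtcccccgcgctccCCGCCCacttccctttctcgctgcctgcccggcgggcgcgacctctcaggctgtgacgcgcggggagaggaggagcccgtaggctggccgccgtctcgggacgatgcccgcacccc
Tbc1d1 intron summit: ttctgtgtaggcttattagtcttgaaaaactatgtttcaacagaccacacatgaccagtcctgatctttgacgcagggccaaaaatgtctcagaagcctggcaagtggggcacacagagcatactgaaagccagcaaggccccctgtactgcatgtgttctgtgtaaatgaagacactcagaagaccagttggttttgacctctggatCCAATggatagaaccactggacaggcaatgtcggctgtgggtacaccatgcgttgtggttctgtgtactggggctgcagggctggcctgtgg

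Slc2a4 and Slc2a1 encode glucose transporters. GLUT4, the product of Slc2a4, is the one that insulin moves to the surface, and GLUT1, the product of Slc2a1, stays at the surface of many cell types and is abundant in endothelium. Slc2a4 (ENSMUSG00000018566.14, chr11:69942539-69948188, minus strand) is 5650 bp long, and 1 region, chr11:69943953-69950323, covered 75.0% of it with 1432 of its 1641 coding bp. This region was 6371 bp wide (5755 in replicate 1 and 6713 in replicate 2) with a signal value of 32.0 (28.3 and 32.0). All regions together covered 86.0% of the Slc2a4 body (73.9% and 95.5%), the highest share of the 10 genes in each list.

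Slc2a1 (ENSMUSG00000028645.11, chr4:119108711-119137983, plus strand) was covered over 3.83% of its body (2.97% and 5.07%), the lowest share of the 10 in each list. Its promoter region was the narrowest of the 10, 1465 bp (1176 in replicate 1 and 1470 in replicate 2). It was not weak: its signal value of 36.7 (27.3 and 35.5) was above that of Slc2a4 in the replicated list and replicate 2 and below it in replicate 1. The difference between these transporter genes was thus one of covered length in all 3 lists. All 4 endothelial markers had promoter regions, and their part in the Slc2a1 region was not tested. Fat cells also use Slc2a4 and Irs1. None of the 5 adipocyte markers had a promoter region, and the part of fat cells in the Slc2a4 and Irs1 regions was not tested.

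The Slc2a1 promoter window chr4:119108495-119108794 (plus strand, GRCm38.p6) is shown as the narrowest of these starts. Capitals mark GGGCGG, as its complement, at -45 and -20, CCAAT at 13 and TATAAA at 29. The last 2 lie after the RefSeq start.
Slc2a1 promoter: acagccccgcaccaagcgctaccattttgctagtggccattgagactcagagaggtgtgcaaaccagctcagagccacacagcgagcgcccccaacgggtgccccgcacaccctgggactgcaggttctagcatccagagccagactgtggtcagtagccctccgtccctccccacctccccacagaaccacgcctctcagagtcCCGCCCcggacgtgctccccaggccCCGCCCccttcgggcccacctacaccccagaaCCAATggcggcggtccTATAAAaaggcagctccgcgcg

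Hk2 (ENSMUSG00000000628.10, chr6:82725025-82774454, minus strand) encodes hexokinase 2, which phosphorylates the glucose that has entered the fibre and so keeps it there. Its promoter region was the widest of the 10 genes by far: chr6:82746679-82775763, 29085 bp, the 10th widest of 84452 regions. In replicate 2 it was 29748 bp wide and ranked 8th. In replicate 1 the span was divided into 3 regions that covered 97.3% of it, the widest of 16353 bp, which ranked 24th. The region ran over 56.2% of the gene body and over 4 of its 19 exons, counting overlapping exons as 1. The acetylated length, which stops at 5 kb from the start, placed Hk2 in the middle of the 10 genes and does not show this width.

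A second strong region lay upstream of Hk2 at chr6:82805815-82808712, its summit 33073 bp before the first start. It was 2898 bp wide with a signal value of 27.4 (21.5 in replicate 1 and 28.0 in replicate 2), beside 41.4 (21.9 and 44.5) at the promoter. In replicate 1 the strongest region of the Hk2 window was a piece of the divided span, 15551 to 24774 bp downstream of the first start, with 28.6. The promoter window, chr6:82774405-82774704, and the 300 bases at the upstream summit, chr6:82807377-82807676, are shown together because they were the strongest start and the strongest region away from starts at Hk2 in the replicated list. Both are given on the minus strand. In the promoter capitals mark GGGCGG or its complement at -201, -106 and -38 and CCAAT or its complement at -122 and -66. In the upstream window, which had 2 CpG against 25 in the promoter, they mark CAGCTG and the complement of GTAAACA, the forkhead consensus.
Hk2 promoter: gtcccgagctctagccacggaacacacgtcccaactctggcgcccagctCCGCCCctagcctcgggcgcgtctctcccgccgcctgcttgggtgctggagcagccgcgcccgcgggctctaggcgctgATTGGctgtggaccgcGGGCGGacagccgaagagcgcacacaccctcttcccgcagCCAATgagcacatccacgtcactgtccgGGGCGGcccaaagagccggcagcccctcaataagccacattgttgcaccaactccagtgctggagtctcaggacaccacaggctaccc
Hk2 upstream summit: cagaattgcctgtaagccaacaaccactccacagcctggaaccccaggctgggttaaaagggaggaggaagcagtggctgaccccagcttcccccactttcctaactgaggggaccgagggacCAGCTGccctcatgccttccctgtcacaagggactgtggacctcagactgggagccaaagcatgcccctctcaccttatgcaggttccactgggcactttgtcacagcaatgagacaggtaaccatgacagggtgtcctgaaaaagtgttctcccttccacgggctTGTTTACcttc

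**Figure D2:**
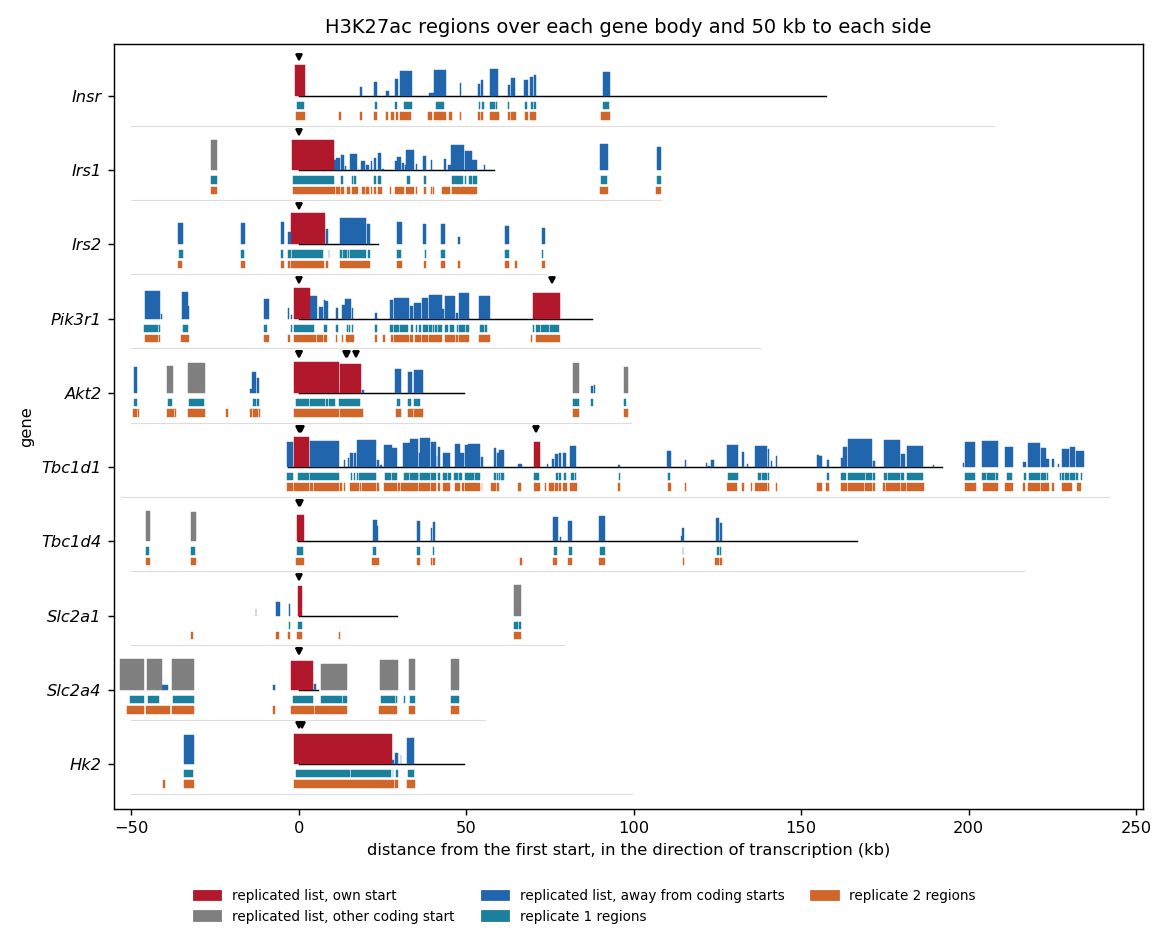
Regions over each gene body (black line) and 50 kb to each side (grey line), as distance from the first start in kb in the direction of transcription; triangles are protein-coding starts. Upper bars are regions of the replicated list, their height proportional to the percent of the list with an equal or lower signal value (to 100%), red at the gene's own starts, grey at other coding starts and blue elsewhere; the thin rows are the regions of replicates 1 and 2. Tbc1d1 has 73 regions and Slc2a1 has 5.

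Regions reached farther downstream of the start than upstream at 9 of the 10 genes, where 70.9% of 13144 coding genes did so. The exception was Pik3r1 at its inner start, with 2506 bp downstream and 5559 bp upstream. Reach was taken at the start with the largest acetylated length. There it was 26684 bp downstream beside 2400 upstream at Hk2, 10460 beside 1964 at Irs1, 8006 beside 2290 at Irs2 and 4466 beside 2055 at Akt2. The region at the first Akt2 start, not counted in this way, reached 12044 bp downstream. Upstream reaches of the other 9 genes lay between 343 bp at Slc2a1 and 2400 bp at Hk2, all measured at those starts.

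**Figure D3:**
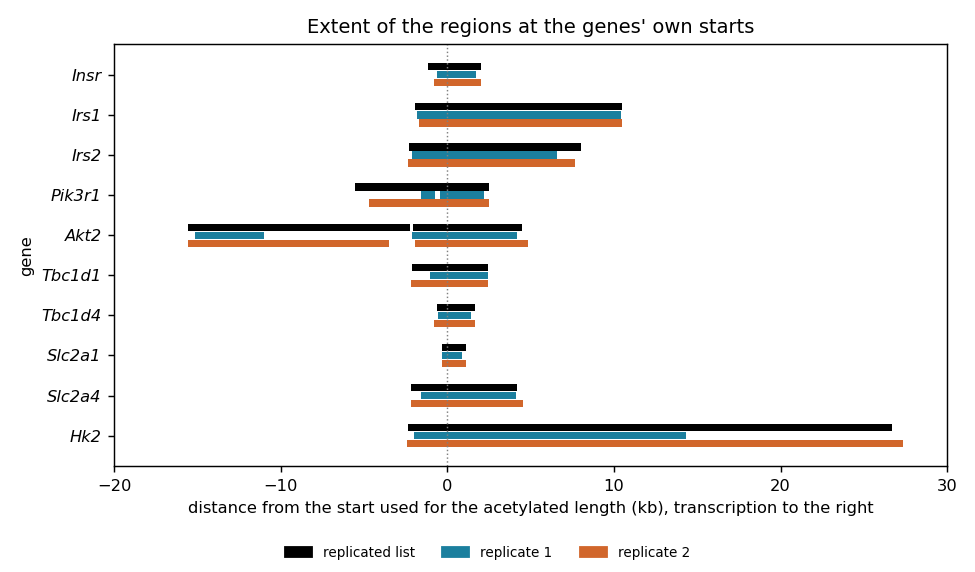
Extent of the regions at each gene's own starts, as distance in kb from the start with the largest acetylated length (dotted line), with transcription to the right; bars are the replicated list (black), replicate 1 (teal) and replicate 2 (orange). The regions at the first start of Pik3r1 and the inner start of Tbc1d1 lie outside the frame, and Hk2 reaches 26684 bp downstream in the replicated list.

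Across the 10 windows there were 217 regions, a median of 16 per gene beside 6 over all coding genes and 10 over those with a promoter region. They covered a median of 25.4% of the window (20.4% in replicate 1 and 25.8% in replicate 2), beside 5.78% and 10.1%. The windows of the 10 genes were also longer, with a median of 153873 bp beside 117384 and 124076 bp. Coverage by window ran from 4.14% at Slc2a1 and 5.89% at Tbc1d4 to 39.0% at Slc2a4 and 40.3% at Tbc1d1. These high values came about differently. At Tbc1d1 no other coding gene starts within the window, while at Slc2a4 7 of the 11 regions lay at starts of other genes. Of all 217 regions, 149, or 68.7%, were shared with both single-replicate lists, beside 63.3% of the whole list. A region counted as shared where at least 50% of the shorter of the overlapping regions was covered. Replicate 1 lacked more of them than replicate 2: 152 were shared with replicate 1 and 191 with replicate 2. Of the 189 regions away from coding starts 64.0% were shared with both, beside 57.4% of all such regions, and their median signal value equalled that of all such regions, 4.25.

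The strongest region of the window was not at the gene's own start in 4 of the 10 genes, where this was so for 53.0% of coding genes with a promoter region. In all 4 it was at another gene's start. Near Slc2a4 these were the starts of Dvl2 and Phf23 (56.3), of Ctdnep1 and Elp5 (53.6) and of Neurl4 and 2810408A11Rik (52.2). Those of Gabarap (51.1), Gps2 (44.7) and Eif5a (36.3) followed, and all these values were above the 32.0 of Slc2a4 in the replicated list. In replicate 2 the region at Ctdnep1 and Elp5 had 31.1, below the 32.0 at Slc2a4. Near Irs1 it was Rhbdd1 (42.0 against 37.8), near Slc2a1 Zfp691 (46.9 against 36.7), and near Tbc1d4 Uchl3 (39.8 against 16.7) with Commd6 second (35.1). Each single-replicate list added 1 gene to these 4, Hk2 in replicate 1 and Tbc1d1 in replicate 2. The nearest of these regions, that at Eif5a, began 24279 bp from the first Slc2a4 start, and nothing in the lists assigns a region to a gene.

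**Figure D4:**
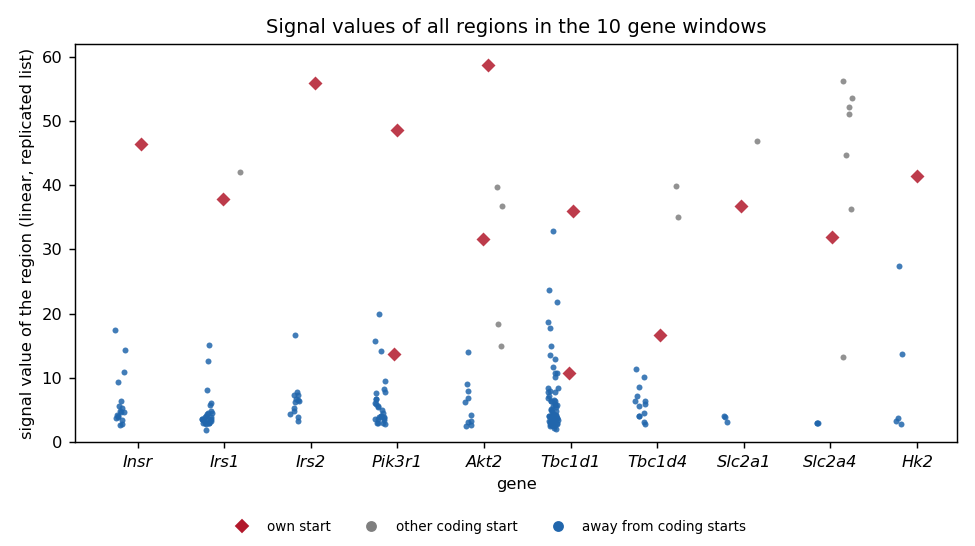
Signal value (y axis, linear, replicated list) of each of the 217 regions in the 10 gene windows (x axis), as red diamonds at the gene's own starts, grey points at other coding starts and blue points away from coding starts. Blue points reach 32.9 at Tbc1d1 and 27.4 at Hk2, and grey points lie above the red one at Irs1, Tbc1d4, Slc2a1 and Slc2a4.

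Sequence was compared for 8 of the 10 genes, which matched the RefSeq promoter table in 13 windows of 300 bases (Insr and Slc2a4 did not match). The lists' mice were hybrids, and the sequence is that of the reference strain. GGGCGG, the core of Sp-family sites, was in 8 of the 13 windows and in 47.9% of 20054 coding promoter windows. CCAAT was in 5 of 13 and 37.9% of all. CAGCTG was in 2 of 13 and 15.8% of all. CACGTG was in 2 (Irs1 and Irs2) and 8.06% of all, and TATAAA in 2 (the inner start of Pik3r1, and Slc2a1) and 12.1% of all. The other 5 motifs were in none of the 13 windows. Of all promoter windows, 19.8% held CACCTG, 2.97% held the forkhead consensus GTAAACA, 2.32% held the cAMP response element TGACGTCA, 7.01% held the AP-1 site TGANTCA and 2.56% held the MEF2 consensus. Both strands were searched, and a match is a description of these letters only. A match of the MEF2 consensus can contain TATAAA, so the counts of these motifs can overlap.

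In the 10 windows centred on the summit of each gene's strongest region away from coding starts, CAGCTG was in 4 (Insr, Irs1, Akt2 and Hk2), beside 20.3% of 69276 such windows. CCAAT and TATAAA were in 2 each, beside 29.7% and 14.3%. The MEF2 consensus was in 1, the window downstream of Irs1, which held 2 matches, beside 3.84%. That window also held 1 TATAAA match, and whether these matches overlap was not examined. GTAAACA was in 1, upstream of Hk2, beside 4.87%, and GGGCGG in 1, near Akt2, beside 5.83%. The other 4 motifs were in none of the 10. Of all such windows, 20.4% held CACCTG, 3.99% held CACGTG, 0.199% held TGACGTCA and 9.51% held TGANTCA.

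A further 51 genes of the pathway were also chosen with earlier results of these data known. All 51 had a promoter region in all 4 lists, beside the 61.2% of all coding genes given above. Their median acetylated length was 4189 bp (3794 in replicate 1 and 4413 in replicate 2), between those of all coding genes and of the 10 genes. By list, the medians were 4427.5 bp for 12 receptor-level genes and adaptors, 3413 bp for 16 genes of phosphoinositide 3-kinase, Akt and their phosphatases, 5853 bp for 9 Akt targets and 3792.5 bp for 14 genes of GLUT4 traffic. The longest at the receptor level was Grb10, an adaptor that restrains the receptor (9238 bp). In the kinase list it was Pik3ca, a catalytic subunit (7565 bp).

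Among Akt targets the longest were Gsk3b, a kinase that restrains glycogen synthase (8452 bp), and Gys1, muscle glycogen synthase itself (7031 bp). The Gys1 promoter region also lay within 1 kb of a start of Ruvbl2, another coding gene, so this length cannot be assigned to Gys1 alone. In GLUT4 traffic the longest were Myo1c, a motor protein, covered over the whole 10000 bp (9525 in replicate 1 and 10000 in replicate 2), and Rhoq, a small GTPase (7865 bp). The list ranges were wide, from 1315 bp to 10000 bp, and overlap those of the 10 genes.

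Of 12 paralogs of the 10 genes, 6 had a promoter region, and 5 of 12 did in replicate 1 and 6 of 12 in replicate 2, near the 61.2% of all coding genes. Their median acetylated length was 628.5 bp in the replicated list, 0 bp in replicate 1 and 394.5 bp in replicate 2. Those without were Insrr, a relative of the receptor, the adaptor Irs4, the transporters Slc2a2 and Slc2a5, and the hexokinases Hk3 and Hkdc1. Hk3 had 476 bp of acetylated sequence within 5 kb of a start in the replicated list and 0 bp in each single-replicate list, and the other 5 had 0 bp. The longest were Slc2a12, a transporter (5497 bp), and Hk1, the hexokinase of most tissues (5302 bp), beside 7401 bp at Hk2. No coding start of another gene lay within 1 kb of the promoter regions of the 6.

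**Figure D5:**
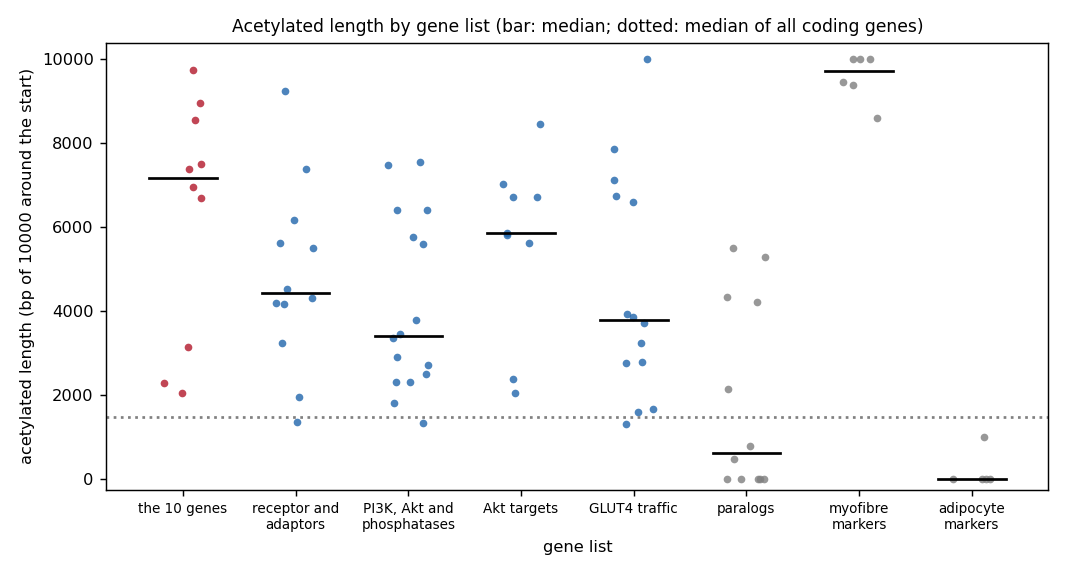
Acetylated length in bp (y axis, of 10000) of each gene (points, spread sideways for view) in the 10 genes, 4 further pathway lists, their paralogs and markers of myofibres and adipocytes (x axis), replicated list; bars are list medians and the dotted line is the median of all coding genes, 1469 bp. The medians of the 10 genes and the paralogs are 7183 and 628.5 bp, and the paralog median is 0 bp in replicate 1 and 394.5 bp in replicate 2.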

How the data were processed

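H3K27ac was measured in 4 libraries of 1 group, and the authors deposited 4 peak lists on mm10 in narrowPeak format: replicate 1, replicate 2, both pooled, and a replicated list drawn from both, per the deposited descriptions, in which the technical replicates of a pool share 1 alignment. The authors deposited a signal value per peak and a q-value as −log10. The aligner, the peak caller with its thresholds, the filters and the reference of the signal value, all not given in the sources used here, could change which regions are listed and how wide they are. No counts are in the lists, so depth is unknown and no interval for depth is given.

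Genes and 41130 starts came from GENCODE M21 (basic set, protein-coding), and sequences from RefSeq. Overlaps, covered lengths and motifs were computed in Python 3.11.15 and tested on simulated data, and figures drawn with matplotlib 3.10.9. A window was the gene body and 50 kb to each side. The members and lists were chosen with earlier results of these data known. Named genes are the 10 members, further pathway genes and paralogs that lack a promoter region, the 2 longest of each list (some are not reported here), and genes whose start lies under a described region. There was 1 group, so nothing was tested. Alternatives were the other lists, −log10 q of at least 5 and other window sizes.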

Additional observations from a re-analysis of the deposited data

How the results depend on the processing

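Of 50 alternative values for 9 results, 32 stayed within the limit set for a change: within 1.5 times for counts, 1 SD of the replicates for medians and the 95% interval (Wilson, counting error only) for a share. All 10 genes kept a promoter region, and 10 had one in both replicates, under every alternative tried, and 49 to 51 of 51 pathway genes did. Leaving out a replicate gave a median acetylated length of 6525 to 7072.5 bp, 16.5 to 17 regions per window and 20.4% to 25.8% of the window covered. The pooled list gave 16.5 regions, and −log10 q of at least 5 gave 14. Other window sizes changed what is counted: acetylated length was 4750.5 bp within 2500 bp of the start, 11413 bp within 10000 bp and 6328 bp when each gene's outermost 5' end alone was used. With flanks of 25000 bp, 100000 bp and none, windows held 12.5, 25.5 and 10 regions over 33.9%, 19.9% and 50.7%. The strongest region was then away from the own start in 2, 5 and 0 genes, since other genes' starts enter with the flank. Requiring 50% overlap of both regions lowered the share of regions shared with both replicates to 51.2%. No paired analysis was possible because there was 1 group and no test. Library depth is unknown, so an absent region, in the shorter replicate 1 list above all, may be one not detectable at that depth.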

Other observations

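Stitching regions at most 10000 bp apart joined the replicated list into 26193 domains. The domain at the Tbc1d1 start was the longest of the 10 genes, chr5:64155939-64242325, with 36 regions over 58982 of its 86387 bp, and ranked 96th by covered bp. The Irs1 domain ranked 332nd with 36689 bp covered and the Hk2 domain 429th with 33065 bp covered. Those of Akt2, Irs2 and Slc2a4 ranked 678th, 743rd and 910th. Inside the Slc2a4 domain 3 other coding genes start, and 0 inside the others. These ranks are of the replicated list alone, and regions covered 35.4% of the Irs1 body in replicate 1 and 61.6% in replicate 2. The domains of Pik3r1 (at its inner start), Insr and Tbc1d4 were single regions of 8066, 3155 and 2288 bp and ranked 3517th, 8679th and 11374th. Only the domain at the start with the largest acetylated length was ranked for each gene. The first start of Pik3r1, with the stronger region, lay outside the domain ranked here. Around it, regions at most 10000 bp apart ran from chr13:101711210 to 101778595, so the Pik3r1 rank does not describe that longer domain. Among the leukocyte markers, a region lay within 1 kb of a start of Cd68, a macrophage gene, in replicate 1 and not in replicate 2. Its acetylated length was similar in both, 4644 bp in replicate 1 and 4414 bp in replicate 2.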
